A study of Mus musculus with 6 samples.

Results

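The 4 simple epithelial keratins Krt7, Krt8, Krt18 and Krt19 were examined in mouse embryonic stem cells sorted by a MERVL reporter. They were taken by gene name from the 17110 genes of the authors' deposited comparison table, and all 4 had 1 row each. The gene IDs of all 4 were also present in the deposited count table. The members were chosen by their log2 fold changes in this same comparison, so their fold changes are given as a description, without a test.

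Keratins are the intermediate filament proteins of epithelial cells. A type II keratin pairs with a type I keratin to build a filament, and neither forms one alone. Krt8 (type II) and Krt18 (type I) are the partners found in single-layered epithelia, where Krt7 (type II) and Krt19 (type I) often join them. In the mouse embryo, Krt8 and Krt18 appear with the outer epithelium of the blastocyst, the trophectoderm, and undifferentiated embryonic stem cells usually carry little of them.

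The series held 6 samples of polyadenylated RNA, 3 sorted as DsRed2-positive and 3 as DsRed2-negative. All were cultures of the TG2A line, whose genotype is given as MERVL driving a fluorescent protein, and all were kept in serum with leukemia inhibitory factor. MERVL is an endogenous retrovirus that is active in 2-cell embryos and in a small share of cultured stem cells, and the reporter reads that activity only. Replicates were sorted on separate dates. The labels name 1 line and list no other genotype, treatment or time.

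The authors' deposited table gives 1 fold change per gene and does not say which sorted group is the numerator. A negative fold change is therefore reported as negative, not as lower in a named group. Nor does the authors' deposited table name its groups, and they were taken as the sorted groups because the labels list no others. Counts of the 6 libraries could not be used, since their column names match no sample, so library depth and values per sample are not analysed here. Among 10 embryonic stem cell markers, 9 had a row, with mean normalized counts between 4522 and 38163 in the authors' deposited table.

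The stretches before the transcription starts are shown first, as a description. All 4 genes share a direction, but they were chosen by their fold changes, so nothing is read from it. RefSeq (GRCm38.p6) gave a start-site window for Krt7, Krt8 and Krt18, 3 of the 4 members. The 250 bases before each annotated start are printed 5′ to 3′ on the strand of the gene, with motif matches in capitals. Krt8 is at chr15:102004343-102004592 on the minus strand, Krt18 at chr15:102027966-102028215 on the plus strand, and Krt7 at chr15:101412153-101412402 on the plus strand.
Krt8: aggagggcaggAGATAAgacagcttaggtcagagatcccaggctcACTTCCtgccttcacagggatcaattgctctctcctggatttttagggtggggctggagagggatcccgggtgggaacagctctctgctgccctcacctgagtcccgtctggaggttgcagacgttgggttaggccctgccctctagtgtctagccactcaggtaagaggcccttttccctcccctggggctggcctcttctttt
Krt18: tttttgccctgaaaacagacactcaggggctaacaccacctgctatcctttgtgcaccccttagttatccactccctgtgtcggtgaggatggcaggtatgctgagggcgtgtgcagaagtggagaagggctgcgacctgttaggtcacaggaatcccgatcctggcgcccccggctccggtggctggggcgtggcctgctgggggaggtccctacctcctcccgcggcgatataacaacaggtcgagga
Krt7: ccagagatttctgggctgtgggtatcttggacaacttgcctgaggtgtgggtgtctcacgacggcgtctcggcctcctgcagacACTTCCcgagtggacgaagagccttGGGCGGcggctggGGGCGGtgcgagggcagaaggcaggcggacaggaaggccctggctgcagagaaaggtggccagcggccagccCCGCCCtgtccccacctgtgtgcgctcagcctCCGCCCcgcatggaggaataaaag

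A set of 7 motifs was searched on both strands of the windows, from 250 bases before to 50 bases after the start. They were TATAAA for the TATA box, GGGCGG for the GC box, TGANTCA for AP-1, GGAATG for TEAD, GGAAGT for ETS, AGATAA for GATA and TTTATNG for CDX factors. Krt7 had 4 GC boxes, which begin 141, 128, 56 and 24 bases before the start, and an ETS match at 166 bases. Of 32544 mouse windows of this length, 35.9% held a GC box and 23.7% an ETS match. Krt8 also had an ETS match, which begins 205 bases before the start, and a GATA match at 239 bases (11.2% of windows). TATAAA matched in the Krt8 window on both strands across the annotated start, beginning 3 and 1 bases before it, so these matches run past the end of the printed stretch and are not in capitals there. TATAAA was found in 13.6% of all windows. Krt18 had 0 matches to the 7 motifs. The AP-1, TEAD and CDX letters, found in 7.79%, 14.6% and 10.8% of all windows, were in none of the 3 windows. These are matches of letters, not measured binding sites. The 3 upstream stretches were richer in G and C than the median window of 52.4%, at 66.0% in Krt7, 60.4% in Krt18 and 58.0% in Krt8.

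All 4 keratins were negative, and the 3 with high counts were among the most negative genes of their abundance. Krt19 (ENSMUSG00000020911) stood at a log2 fold change of -4.73 (standard error, SE, 0.31) in the authors' deposited table, which is a 26.6-fold difference. Krt8 (ENSMUSG00000049382) stood at -4.39 (SE 0.52) in the authors' deposited table, a 21.0-fold difference. Its partner Krt18 (ENSMUSG00000023043) stood at -3.96 (SE 0.51) in the authors' deposited table, a 15.5-fold difference. Krt7 (ENSMUSG00000023039) had the smallest value of the 4, -1.82 (SE 0.60) in the authors' deposited table, a 3.53-fold difference. The authors' deposited table marks each of the 4 as down.

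These values chose the genes, so nothing is read from their number. Across the authors' deposited table, 15.9% of all 17110 genes were negative and 14.6% positive at an adjusted p-value under 0.05 by the authors' DESeq2 test. Centring on 78 ribosomal protein genes shifted every log2 value by 0.10, and these shares then came to 21.0% and 10.7%. The median of the 4 keratins in the authors' deposited table was -4.17, beside 0.0097 over all genes.

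Intervals of 1.96 standard errors were taken around each fold change. They ran from -5.33 to -4.14 for Krt19, from -5.41 to -3.38 for Krt8 and from -4.95 to -2.96 for Krt18, computed from the authors' deposited table. The intervals of Krt19, Krt8 and Krt18 overlapped with each other. Intervals of single genes do not decide their order, since the error of a difference within the same libraries is not known. The interval of Krt7, from -2.99 to -0.65, lay apart from those of Krt8 and Krt19 and touched that of Krt18 at its end. Differences between members were not tested, since the 4 genes were measured in the same libraries.

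**Figure D1:**
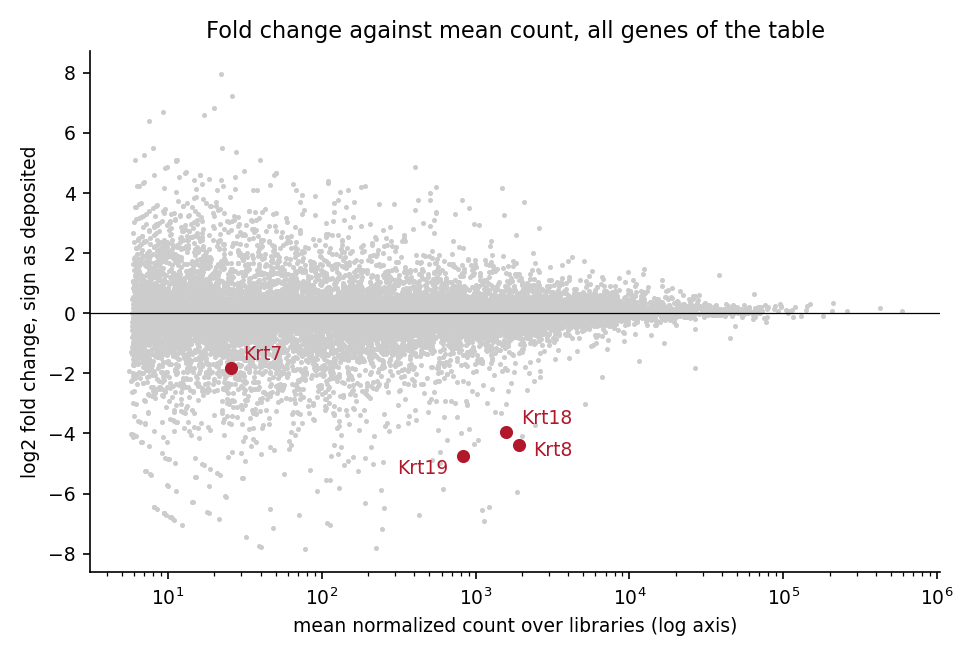
Each point is a gene of the authors' deposited table, with its mean normalized count on a log axis and its log2 fold change, sign as deposited; the 4 keratins are red. Krt8, at -4.39, is the lowest point among genes with a mean at least as high as its own, while Krt7, at -1.82, lies within the wide spread of low counts.

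Set among genes at least as abundant, Krt8, Krt18 and Krt19 lay at the edge of the table. Of the 3786 genes with a mean count at least that of Krt8 in the authors' deposited table, 0 had a more negative fold change than Krt8. For Krt18 this number was 3 of 4338 genes, and for Krt19 it was 4 of 6384. This cutoff leaves out genes just below it, such as Tagln, with a mean of 1849 and a fold change of -5.96. Among other genes within 2-fold of its mean count, Krt8 had 4 of 4004 more negative and Krt19 had 7 of 4235. Krt18 had 10 of 4210, with Krt8 and Krt19 among them. Over the whole authors' deposited table, where low counts spread widely, 79 genes were more negative than Krt19, 95 than Krt8 and 123 than Krt18. Krt7 was unlike them, with 700 genes more negative, or 4.09% of the authors' deposited table.

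Only 3 other genes with a mean count at least that of Krt19 had a fold change between those of Krt19 and Krt18 in the authors' deposited table. They were Slc39a8, a zinc and metal ion transporter, at -4.34 (SE 0.15), Fndc3c1 at -4.21 (0.17) and Nes at -4.07 (0.23) in the authors' deposited table. Nes encodes nestin, an intermediate filament protein of neural progenitors. With a mean count and a standard error no worse than those of Krt7, 357 genes lay between Krt19 and Krt7.

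Krt8 and Krt18 were the most abundant of the 4, and Krt7 was close to the floor. Their mean normalized counts over the libraries were 1903 for Krt8, 1586 for Krt18, 834 for Krt19 and 25.6 for Krt7 in the authors' deposited table. The smallest mean count of any gene there was 5.58. Counts of a gene grow with its length, so levels were compared per kilobase of the longest GENCODE M21 transcript. Per kilobase, the mean counts of the authors' deposited table became 1103 for Krt18, 972 for Krt8, 529 for Krt19 and 6.26 for Krt7. The median gene had 132 per kilobase. Krt18 thus exceeded 86.8% of genes per kilobase, Krt8 85.2%, Krt19 75.7% and Krt7 10.7%.

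The order of Krt8 and Krt18 depended on the length used. Per kilobase of coding sequence, the authors' deposited means gave 1295 for Krt8 and 1249 for Krt18, the reverse order, with 690 for Krt19 and 18.7 for Krt7. Krt7 has a long annotated transcript of 4094 bases against 1437 to 1958 for the others, which lowers its value per kilobase of transcript. On both scales Krt19 lay below Krt8 and Krt18, and Krt7 was lowest. Summed per kilobase of transcript, the type II genes Krt7 and Krt8 came to 978 and the type I genes Krt18 and Krt19 to 1632, a ratio of 0.60, from the authors' deposited table.

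The mean count and the fold change together give an approximate level in each group. The calculation takes the mean to cover 3 libraries in each of 2 groups, and the group means to stand in the fitted ratio. On that reading of the authors' deposited table, Krt8 averaged about 3633 in the group with more and 173 in the group with less, or between 87.6 and 335 over the interval of its fold change. Krt18 came to about 2979 and 192 in the authors' deposited table, the latter between 99.2 and 362. Krt19 came to about 1607 and 60.4 in the authors' deposited table, the latter between 40.4 and 89.8. Krt7 came to about 39.9 and 11.3 in the authors' deposited table, the latter between 5.73 and 19.95. In the group with less, Krt8 and Krt18 thus had calculated levels of 88.4 and 134 per kilobase, near or under the median gene of the authors' deposited table. These are group averages over bulk RNA, in which fewer cells of a type and less RNA per cell cannot be told apart.

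**Figure D2:**
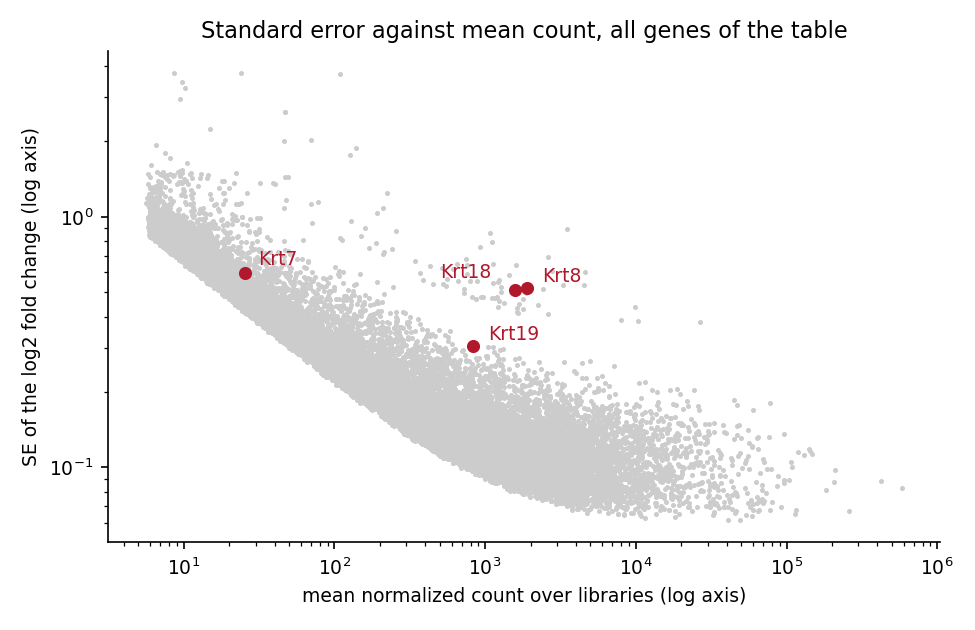
Each point is a gene of the authors' deposited table, with its mean normalized count and the standard error of its log2 fold change, both on log axes; the 4 keratins are red. Krt8 (0.52) and Krt18 (0.51) stand far above most genes of their abundance, whereas Krt7 (0.60) lies within the band of low-count genes.

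The standard errors of Krt8 and Krt18 were large for genes so well counted. Among the 4004 other genes within 2-fold of the mean count of Krt8 in the authors' deposited table, the median standard error was 0.11, and 99.7% had a smaller one than Krt8. Krt18 exceeded 99.6% of its 4210 like genes and Krt19 98.7% of its 4235. Krt7 exceeded 74.2% of 2763 like genes, whose median standard error was 0.51 in the authors' deposited table.

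A large fold change itself leaves few counts in 1 group, so the comparison was narrowed to genes within 1 log2 unit of each member. Of the 5 such genes for Krt8 in the authors' deposited table, all 5 had smaller standard errors, between 0.153 and 0.516 with a median of 0.23. The largest of these was close to the 0.519 of Krt8. Of the 14 for Krt18, 11 had smaller ones (median 0.23 in the authors' deposited table). Of the 10 for Krt19, 6 had smaller ones (median 0.25 in the authors' deposited table). These sets hold other members. Krt18 (SE 0.509) is in those of Krt8 and Krt19, and Krt8 and Krt19 are in that of Krt18. Whether 1 library sets the errors of Krt8 and Krt18 was not tested, since no values per library could be assigned.

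Reads of 1 keratin could be counted for another if their sequences were alike, so the transcripts were compared. Between the coding sequences of the type II genes Krt7 and Krt8, 71.8% of aligned bases were identical, and between the type I genes Krt18 and Krt19, 64.8%. Pairs of unlike type shared between 60.1% and 62.0%. The longest identical run between any 2 of the 4 transcripts was 30 bases, between Krt7 and Krt8, against reads of 150 bases per the labels. Of all 150-base windows in the longest transcripts of Krt7, Krt18 and Krt19, 0 occurred in a transcript of another gene in GENCODE M21.

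Krt8 was the exception. Of its 1809 windows of 150 bases, 154 (8.51%) also occurred in another gene, and of its 1859 windows of 100 bases, 317 (17.1%) did. The other genes were the processed pseudogene Krt8-ps, which shares a run of 299 bases with Krt8, and the noncoding gene Gm36026, which shares 102. Krt8-ps (ENSMUSG00000109325) had a mean count of 37.6 and a log2 fold change of -4.27 (SE 0.73) in the authors' deposited table (DESeq2 adjusted p-value 6.03e-08). That lies within 1 standard error of Krt8 itself, and reads of the pseudogene cannot be told apart from reads of Krt8 over the shared run. Per kilobase, the mean of Krt8-ps was 39.7 against 972 for Krt8 in the authors' deposited table.

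**Figure D3:**
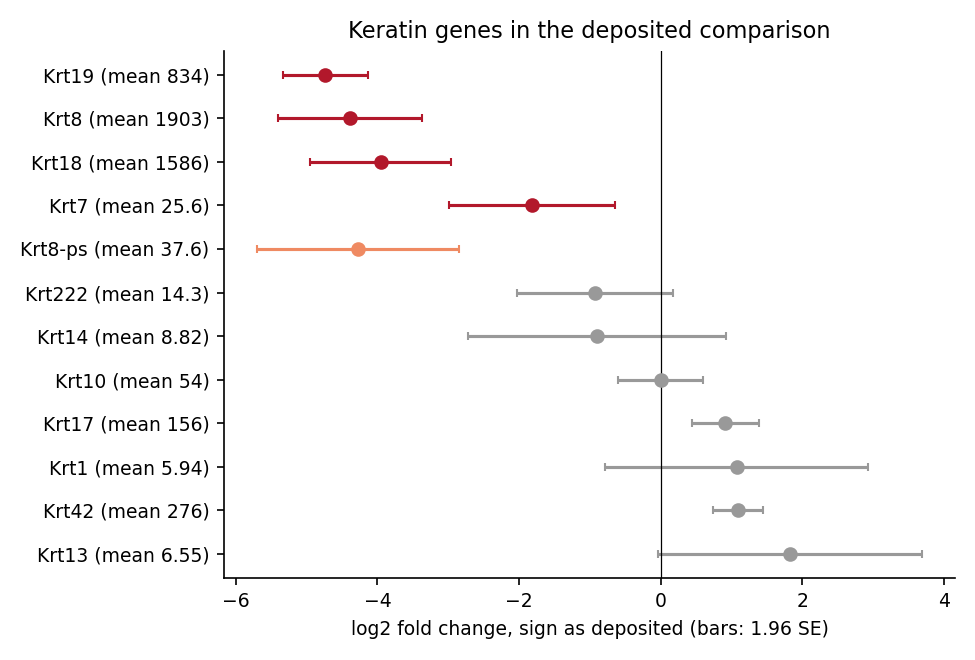
Log2 fold changes of all keratin genes examined that had a row in the authors' deposited table, sign as deposited, with bars of 1.96 standard errors and the mean count beside each name; members are red, the Krt8 pseudogene orange and other keratins grey. Krt19, Krt8 and Krt18 lie at -4.73, -4.39 and -3.96, while Krt17 and Krt42 are positive.

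Other keratins with a row did not pass the threshold in the direction of the members. Of 50 further keratin genes listed, 7 had a row. At an adjusted p-value under 0.05 by DESeq2, 0 were negative and 2 positive in the authors' deposited table, beside 15.9% and 14.6% of all genes. With 7 genes, these counts are not read as a difference from all genes. The median of the 7 was 0.91, and 2 also passed an unadjusted p-value under 0.05. Krt1, Krt13, Krt14 and Krt222 had mean counts between 5.94 and 14.3 and standard errors between 0.56 and 0.95, so a call was hard to reach. The 2 positive genes were type I keratins. Krt42 stood at 1.09 (SE 0.18) and Krt17, a keratin of basal and appendage epithelium, at 0.91 (SE 0.24) in the authors' deposited table. Krt1, the only other type II keratin with a row, stood at 1.08 (SE 0.95) and did not pass in the authors' deposited table. Krt14, a partner of stratified epithelium, had a mean count of 8.82 and a fold change of -0.90 (SE 0.93) and did not pass in the authors' deposited table.

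Krt17 and Krt42 are also close neighbours of Krt19 on chromosome 11, which allowed the loci to be compared. Among the genes with a row, Krt19 lies between Krt13 and Krt14, and Krt17 and Krt42 follow. The 20 nearest coding genes with a row around Krt19 were taken, 10 on each side in RefSeq order. Beside 15.9% and 14.6% of all genes, 4 of these were negative and 6 positive by DESeq2 in the authors' deposited table. Their fold changes in the authors' deposited table ran from -2.33 (Tns4, SE 0.80) to 1.82 (Krt13, SE 0.95, not past the threshold), around a median of 0.088. Krt19, at -4.73, thus lay below all 20.

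Krt8 and Krt18 lie side by side on chromosome 15, with 0 annotated coding genes between them. They are on opposite strands with their starts facing each other, and Krt18 is a type I gene at the end of the type II cluster. Krt7 lies toward the other end of the cluster. Between Krt7 and Krt8, RefSeq lists 23 coding genes, of which 22 are keratins, and 1 (Krt1) had a row. Of the 19 nearest nonmember genes around Krt8 and Krt18 in the authors' deposited table, 0 were negative and 8 positive by DESeq2, with a median of 0.30. Over all genes, 15.9% were negative and 14.6% positive, and with 19 genes the counts are not read as a difference. These 19 neighbours ran from -0.21 (Acvr1b, SE 0.19) to 2.09 (Galnt6, SE 0.26) in the authors' deposited table. Eif4b, a translation initiation factor next to Krt18, had a mean count of 34439 and stood at 0.063 (SE 0.071) in the authors' deposited table. The negative values on this stretch were thus those of the 3 keratins and, short of the threshold, Acvr1b.

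**Figure D4:**
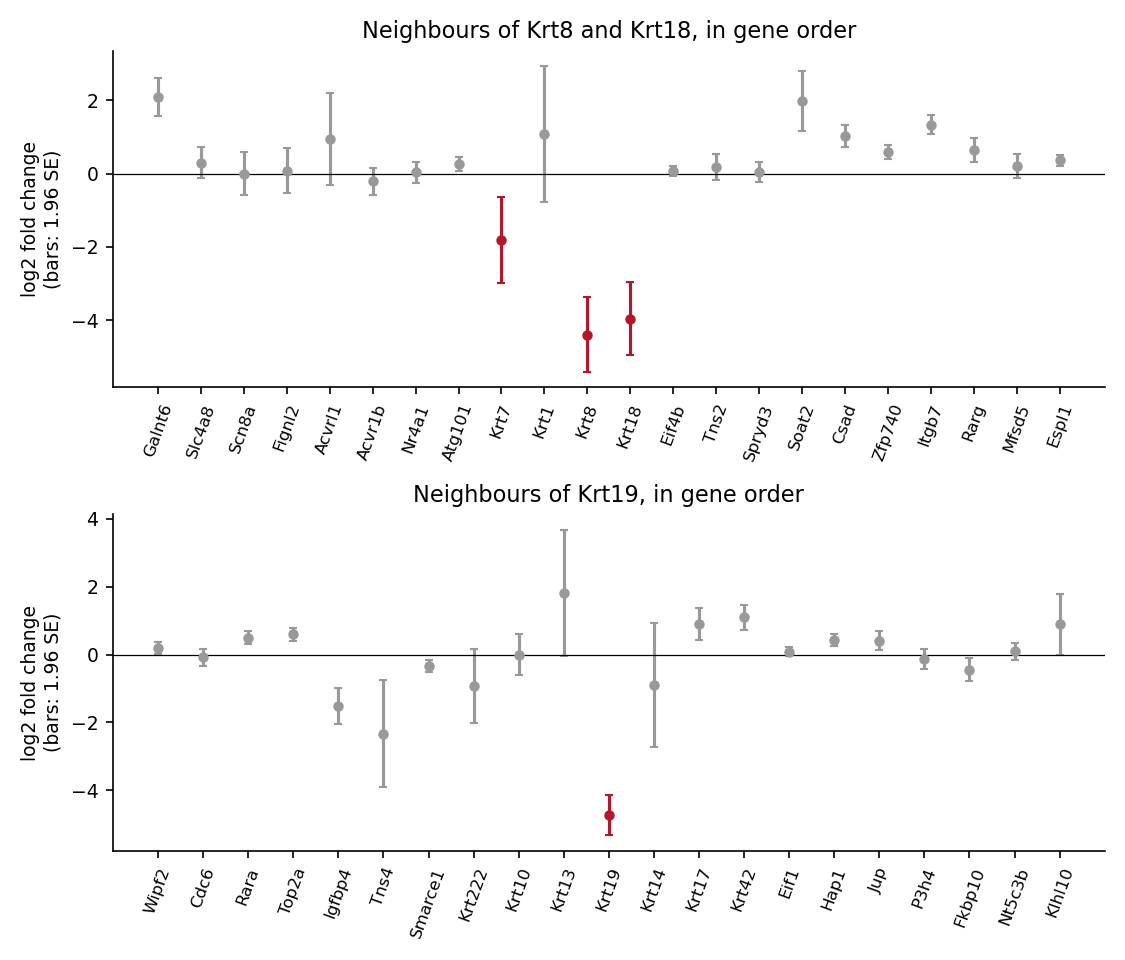
Log2 fold changes with bars of 1.96 standard errors, from the authors' deposited table, for the nearest coding genes with a row on each side of Krt8 and Krt18 (upper panel) and of Krt19 (lower panel), in chromosomal order with members red. In the upper panel, Krt7, Krt8 and Krt18 stand below a row of neighbours between -0.21 and 2.09; in the lower panel, Krt19 stands alone at -4.73.

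Proteins that anchor or bind keratin filaments did not share 1 direction. Their counts stand beside 15.9% negative and 14.6% positive over all genes. With lists this small, the counts are not read as a difference from those shares. Of 18 desmosome, hemidesmosome and plakin genes, 16 had a row, and 6 were negative and 4 positive by DESeq2 in the authors' deposited table, around a median of -0.065. Dsp, whose product desmoplakin ties keratin filaments to the desmosome, was at -1.57 (SE 0.50) in the authors' deposited table. The desmosomal cadherin gene Dsc2 was at -3.36 (0.40), Perp at -2.33 (0.26) and the plakin gene Ppl at -1.28 (0.23) in the authors' deposited table, standard errors in parentheses. Positive were Itgb4 and Itga6, the hemidesmosome integrin, at 0.66 (0.26) and 0.45 (0.14), and Jup, or plakoglobin, at 0.41 (0.14) in the authors' deposited table. After centring on the ribosomal protein genes, 2 of the 4 positive calls of this list were left, and 7 genes were negative. Among 9 keratin-associated proteins, with a median of -0.017 and 2 negative calls after that centring, 1 was negative and 1 positive by DESeq2 in the authors' deposited table: Sfn, the epithelial 14-3-3 protein, at -2.33 (SE 0.45), and Dnajb6, a co-chaperone of keratin 18, at 0.49 (SE 0.10) in the authors' deposited table.

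Among 16 other intermediate filament genes, 15 had a row. Of these, 4 were negative and 2 positive by DESeq2 in the authors' deposited table, around a median of 0.20. Over all genes, 15.9% were negative and 14.6% positive, and with 15 genes these counts are not read as a difference. Nes was at -4.07, the neurofilament gene Nefl at -3.04 (SE 0.55) and Synm, or synemin, at -0.91 (0.25) in the authors' deposited table. The lamin genes Lmna and Lmnb2 were at 0.89 (0.13) and 0.46 (0.09), and Vim, the filament gene of mesenchymal cells, was at 0.20 (0.23) without a call in the authors' deposited table.

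Transcription factors linked to simple epithelia were mixed, and the AP-1 genes listed were not. The counts stand beside 15.9% negative and 14.6% positive over all genes. Of 18 epithelial and trophectoderm factors, 15 had a row, with a median of -0.30, 4 negative and 2 positive by DESeq2 in the authors' deposited table; ribosomal centring left 1 positive, and a mean count of at least 50 left 2 negative. Cdx2, which specifies trophectoderm, was at -5.82 (SE 0.96) and Eomes at -2.22 (0.33), while Klf5 and Grhl2 were at 0.60 (0.07) and 0.60 (0.21) in the authors' deposited table. AP-1 is a dimer of Jun and Fos proteins that is known to act on an element in the first intron of the human KRT18 gene. The AP-1 list was drawn up with earlier results of these data known. It also holds Atf3, Batf3 and Maff, which are neither Jun nor Fos genes. All 10 AP-1 genes listed were negative by DESeq2, where 15.9% of all genes were, and their median was -2.18 in the authors' deposited table. A link between these genes and the keratin values was not tested. Jun was at -3.03 (0.23), Fosb at -2.97 (0.20), Fos at -2.57 (0.42) and Fosl2 at -2.38 (0.28) in the authors' deposited table.

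**Figure D5:**
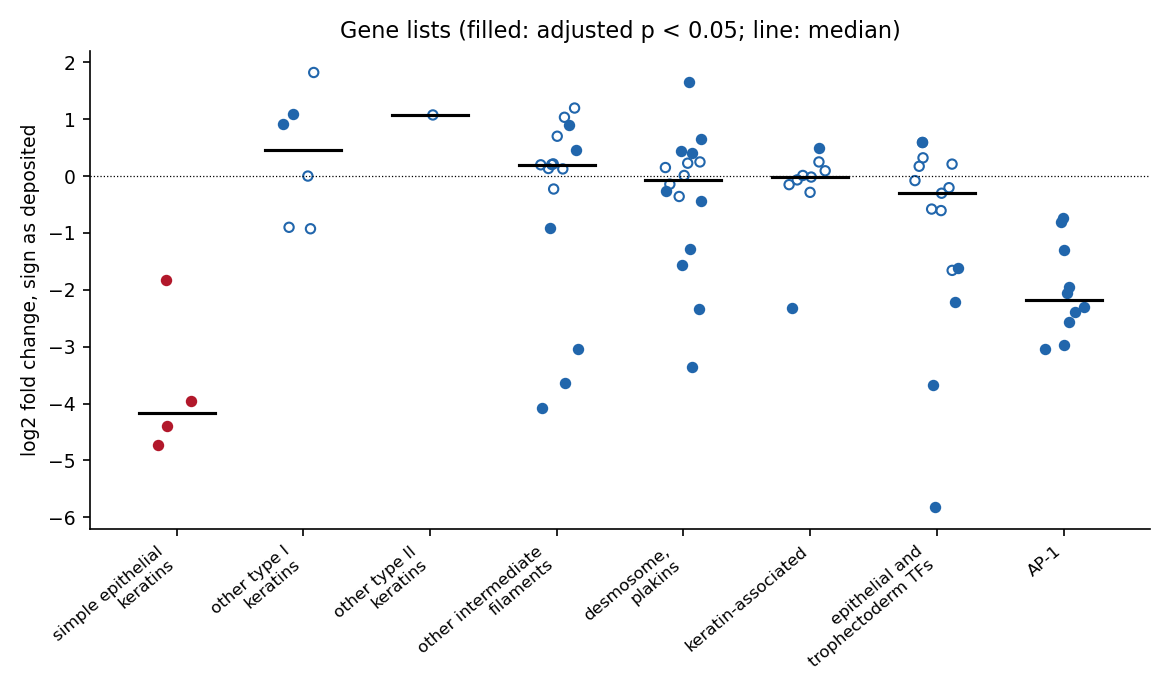
Each point is 1 gene with a row in the authors' deposited table, its log2 fold change on the vertical axis with the sign as deposited; filled points had an adjusted p-value under 0.05, red points are the members and lines are list medians. The members centre at -4.17 and the AP-1 genes at -2.18, and the other lists lie on both sides of 0 or above it.

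Markers of several cell types were counted in the same way, beside 15.9% negative and 14.6% positive over all genes. Of 10 trophectoderm markers other than keratins, 8 had a row (Elf5 and Plac1 had none used here), 3 were negative and 0 positive by DESeq2, their median was -1.13 and their summed mean count was 3766 in the authors' deposited table. All 10 epithelial surface markers had a row, 6 negative and 0 positive around a median of -0.59, such as Cldn7 at -2.27 (SE 0.18), whereas Cdh1, with the highest mean of 16556, was at 0.11 (0.10) in the authors' deposited table. Of 10 primitive endoderm markers, 8 had a row, 2 were negative and 1 positive, with a median of -0.73 and a summed mean of 4670 in the authors' deposited table. Of 10 fibroblast markers, 6 had a row and 5 were negative, with a median of -2.25 and a summed mean of 2039 in the authors' deposited table, most of it from Tagln (1849). Of 10 epidermal markers, 4 had a row and 1, Sfn, was negative, and of 6 mesothelium markers, 4 had a row, 1 negative and 1 positive, in the authors' deposited table. Of the 9 stem cell markers with a row, 6 were positive and 0 negative around a median of 0.39, led by Dppa5a at 1.29 (0.15) in the authors' deposited table. Most of the trophectoderm sum came from Tfap2c (mean count 1777, at -0.61) and Cldn4 (1264, at 0.18), both without a call. Its negative genes Cdx2, Eomes and Hand1 had mean counts of 130, 271 and 25.8 in the authors' deposited table. These 3 were also counted among the transcription factors above, and Cldn4 also among the epithelial surface markers, so the lists are not separate observations. Most of the primitive endoderm sum came from Sparc (2646), without a call at -0.42, and Lama1 (1502), positive at 1.91. The negative genes there, Dab2 and Col4a1, had mean counts of 148 and 330 in the authors' deposited table. The summed levels of the marker lists in each group are not known here, and their part in the keratin values was not tested.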

How the data were processed

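RNA from 6 samples, 3 in each of 2 sorted groups, was measured by paired-end sequencing. The submitters' processing notes name FastQC 0.12.1, Trimmomatic 0.39, STAR 2.7.11b, RSEM 1.3.3, DESeq2 1.45.3 and the build GRCm39, with no role or order, and the annotation and model formula are not given in the sources used here. Per the file headers, the deposited table holds DESeq2 output: the mean normalized count, a signal pooled by the authors, the authors' log2 fold change with its SE, a Wald statistic (score), and the p-value before and after adjustment. The statistic differed from the log2 fold change over its standard error by at most 5.77e-07. The 6 columns of the deposited count table match no sample label and were not used, so edgeR, planned for counts, was not run.

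The members and all gene lists were chosen with earlier results of these data known. Named genes were the 4 members, up to 4 genes in each direction per list with a mean count of at least 100 and an adjusted p-value under 0.05, and the highest-mean gene of a list or marker set, of which some are left out. The rule for the 5 genes most like the members singled out none, since 357 lay inside their range. Slc39a8, Fndc3c1, Vim, Krt14, Krt8-ps, Gm36026 and the neighbouring genes were named after their values were seen, and the motifs were chosen with the printed sequences in view.

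Transcripts, lengths and coding sequences came from GENCODE M21 (GRCm38, for 16795 of the 17110 genes by ID), and gene order and start-site windows from RefSeq GRCm38.p6. These builds differ from GRCm39, so coordinates are given for the printed sequences only. Coding sequences were aligned globally with Biopython 1.88 (match 2, mismatch -1). Python 3.11.15 and SciPy 1.17.1 were used. The recomputed Wald test with Benjamini-Hochberg adjustment was tested on simulated data. Alternatives were a threshold of 0.01, an absolute log2 fold change over 1, a mean count of at least 50, and other centres of the fold changes.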

Additional observations from a re-analysis of the deposited data

How the results depend on the processing

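Of the alternatives, centring on all genes or on the ribosomal protein genes left each of the 4 keratins negative, within 1 standard error of its value as deposited. Their median was -4.18 and -4.27 under these centrings. No paired analysis was possible because neither deposited file ties a value to a replicate number. For the same reason edgeR, its fit with the replicate number as a block, and fits that leave out a replicate were not run, so whether 1 library decides a keratin value is not answered here.

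Of the counts of called genes in the other lists, 11 values differed by more than 1.5 times from those reported, and the causes were not tested beyond the stricter limits themselves. With an absolute log2 fold change over 1, positive calls came to 1 other type I keratin, 0 other intermediate filament genes, 1 desmosome, hemidesmosome or plakin gene, 0 keratin-associated proteins and 0 epithelial or trophectoderm transcription factors. With an adjusted p-value under 0.01, positive calls came to 1 desmosome, hemidesmosome or plakin gene and 1 transcription factor. With a mean count of at least 50, 2 transcription factors were negative. After ribosomal centring, 2 desmosome, hemidesmosome or plakin genes and 1 transcription factor were positive, and 2 keratin-associated proteins were negative. Ribosomal centring moved the positive share of all calls from 47.8% to 33.7%.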
